A study of Mus musculus with 14 samples.

Results

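Nodal, Lefty1, Lefty2, Tdgf1, Acvr2b, Smad2, Smad3, Eomes and Gsc, which encode parts of the Nodal signalling pathway and a pair of its early mesendoderm targets, were chosen by name for this account. They are 9 of the 25131 rows of a gene count table from mouse embryonic stem cells (ESCs), and each was examined in Rcor2 knockout (KO) against wild-type (WT) libraries and for binding sites of RCOR2 within 20 kb. RCOR2, a CoREST family protein, is a corepressor and a partner of the histone demethylase LSD1. The series holds 14 samples in 8 groups, and its design text names the protein complex at the Nanog promoter, RCOR2 binding and the RNA of Rcor2 KO cells as its subjects. Used here were RNA-seq of 2 libraries labelled RCOR2 KO and 2 labelled WT, and a peak list from chromatin immunoprecipitation (ChIP) of WT ESCs that express HA-tagged RCOR2, precipitated with anti-HA agarose (2 samples). The ChIP controls (2 samples) were WT cells in the first replicate and mCherry-expressing cells in the second. All of these cells have the C57BL/6 background and, per the labels, were grown on gelatin in serum with leukemia inhibitory factor and 2i, the inhibitors PD0325901 of the kinase MEK and CHIR99021 of the kinase GSK3. The labels do not say which stretch of Rcor2, if any, was deleted, or whether the KO line is 1 clone. Nor do they say whether the libraries came from separate cultures, so p-values here measure the spread between libraries alone, which could be technical.

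Nodal is a secreted ligand of the TGF-beta family. It binds type I and type II activin receptors, among them the type II receptor ACVR2B, with the help of the co-receptor encoded by Tdgf1 (Cripto), and the receptors phosphorylate SMAD2 and SMAD3, which enter the nucleus with SMAD4 and act with partners such as FOXH1. Lefty1 and Lefty2 encode secreted inhibitors that are induced by the pathway and feed back on it, while the T-box factor gene Eomes and the homeobox gene Gsc are turned on as epiblast cells form mesoderm and endoderm. Mouse ESCs make Nodal and respond to it, and Lefty1, Lefty2 and Tdgf1 are expressed in them.

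The start regions of Nodal, Tdgf1 and Eomes are shown because the first lies under the widest RCOR2 peak near any of the 9 genes, the second holds matches to binding motifs of the pathway, and the third belongs to the gene whose RNA changed. Each runs from 250 bases before to 50 bases after the start, 5′ to 3′ on the gene's strand, from RefSeq on GRCm38.p6, at chr10:61417722-61418021 (plus strand) for Nodal, chr9:110946109-110946408 (minus strand) for Tdgf1 and chr9:118477939-118478238 (plus strand) for Eomes. Capitals mark matches to a FOXH1 motif (TGTNNATT) or to the SMAD box (CAGAC) on either strand; the windows of Nodal and Eomes hold neither.
Nodal: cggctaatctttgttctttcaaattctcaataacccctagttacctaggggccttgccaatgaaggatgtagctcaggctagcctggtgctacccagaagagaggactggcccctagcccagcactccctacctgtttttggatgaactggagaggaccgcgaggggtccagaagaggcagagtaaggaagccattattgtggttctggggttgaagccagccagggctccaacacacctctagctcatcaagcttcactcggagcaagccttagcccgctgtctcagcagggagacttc
Tdgf1: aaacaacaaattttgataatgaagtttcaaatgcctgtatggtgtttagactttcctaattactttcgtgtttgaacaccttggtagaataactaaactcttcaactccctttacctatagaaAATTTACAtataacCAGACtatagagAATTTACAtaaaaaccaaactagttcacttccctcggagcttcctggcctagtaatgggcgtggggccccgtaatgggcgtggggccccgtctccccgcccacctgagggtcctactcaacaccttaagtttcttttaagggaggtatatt
Eomes: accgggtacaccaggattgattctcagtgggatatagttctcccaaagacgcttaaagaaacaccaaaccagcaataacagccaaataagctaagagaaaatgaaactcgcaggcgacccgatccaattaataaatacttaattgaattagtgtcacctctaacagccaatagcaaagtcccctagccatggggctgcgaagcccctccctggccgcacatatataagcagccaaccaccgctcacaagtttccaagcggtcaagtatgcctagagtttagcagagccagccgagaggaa
The Tdgf1 window held the FOXH1 letters on the opposite strand, as AATTTACA, with first bases 127 and 101 bases before the start, and a CAGAC between them 113 bases before the start. Of all 32851 promoter windows of this length, 12.2% held the FOXH1 motif and 49.6% the SMAD box. Promoter windows were matched for 6 of the 9 genes (Nodal, Tdgf1, Acvr2b, Smad3, Eomes and Gsc), and among these the SMAD box was also in that of Acvr2b, as GTCTG 233 bases before the start. The longer SMAD palindrome GTCTAGAC (in 0.213% of all windows), the T-box motif AGGTGTGA (1.28%), the TCF/LEF motif CTTTGATC (0.938%) and the REST motif parts TTCAGCACC (0.371%) and GGACAGC (6.56%) were in none of the 6, searched on both strands. A match is a description of the letters and not a bound site. The windows differed in composition, with a GC content of 41.7% in Tdgf1, 47.3% in Eomes, 54.0% in Nodal, 60.3% in Gsc, 67.7% in Smad3 and 73.3% in Acvr2b, against a median of 52.7% over all windows.

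The KO libraries held 2951498 and 1974865 read counts and the WT libraries 2368804 and 1286393, which limits the precision of genes with few counts. Levels are given as counts per 1000000 (CPM) after scaling by trimmed mean of M-values (TMM), and fold changes as KO over WT on the log2 scale with their standard error (SE). A gene is called changed when its adjusted p, from the edgeR quasi-likelihood test with Benjamini-Hochberg adjustment over all 10241 genes tested, was under 0.05. Rcor2 itself was counted 157 and 103 times in the KO libraries and 193 and 107 times in the WT libraries. Its level was 54.0 ± 0.212 against 81.4 ± 0.117 CPM (mean ± SD, n = 2 libraries). Its log2 fold change was −0.59 (SE 0.23, edgeR adjusted p = 0.0636), which was not called, so Rcor2 RNA remained in the KO libraries. Counts per gene do not show where in Rcor2 the reads lie, so they cannot check the KO labels. The ESC markers Pou5f1, Nanog and Sox2 were counted in all 4 libraries, and the 9 ESC markers summed to 3564 and 3683 CPM in KO and 3272 and 3123 CPM in WT. Of these 9, Klf4 (log2 fold change 1.30), Tfcp2l1 (0.87) and Nanog (0.48, but −0.44 with chromosomes centred) were called higher and Dppa5a (−0.47) lower, beside 10.4% and 9.3% of all genes tested. Sox2, on chromosome 3, was at −0.24 and not called. With chromosomes centred Sox2 was at −0.72 and called lower (edgeR adjusted p = 0.00019). Fold changes of whole chromosomes were shifted in the KO libraries, with medians of 0.92 on chromosome 6, 0.52 on chromosome 8, 0.48 on chromosome 3 and −0.49 on chromosome 11. On chromosome Y the 2 genes tested were called lower in KO, with a median of −6.02. None of the 9 genes lies on these chromosomes. The medians of the chromosomes that hold them were −0.12 (chromosome 1), −0.01 (chromosome 9), −0.01 (chromosome 10), −0.04 (chromosome 12) and −0.13 (chromosome 18).

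Of the 9 genes, Eomes was called higher in KO and none was called lower. All 9 passed the filter on low counts, and over all genes tested 10.4% were called higher and 9.3% lower, so that 1 call among 9 is close to the share over all genes. At an unadjusted p under 0.05 the edgeR test gave 1 gene higher (Eomes) and 2 lower (Lefty1 and Gsc). The share of all genes past that looser threshold was not counted, so these numbers have nothing to be set against. At adjusted p under 0.05, DESeq2 and limma-voom also called Eomes higher and no gene lower. Both KO libraries were above both WT libraries for Lefty2, Tdgf1 and Eomes, against 28.1% of all genes tested, and below both for Nodal, Lefty1, Acvr2b, Smad2 and Gsc, against 28.8%. The median log2 fold change of the 9 was −0.16, beside −0.02 over all genes tested.

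**Figure D1:**
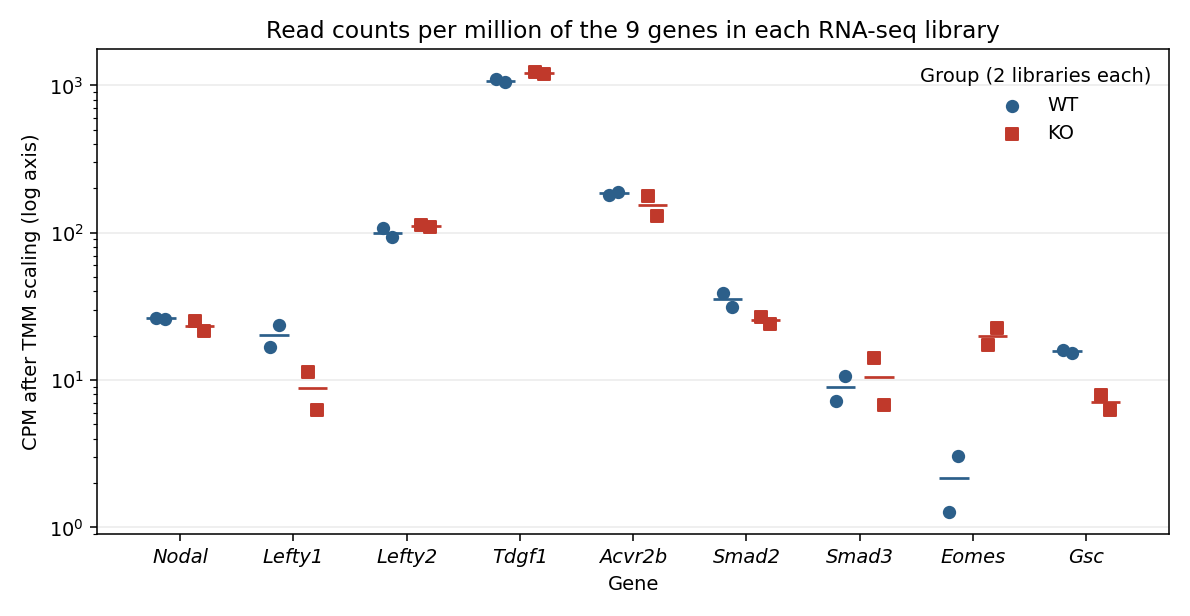
Level of each of the 9 genes in each library, in CPM on a log axis, with circles for WT, squares for KO (2 libraries each) and a line at each group's mean. Eomes is at 17.3 and 22.5 CPM in KO against 1.26 and 3.05 CPM in WT, while Tdgf1, Lefty2, Nodal and Acvr2b lie close together in both groups.

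The ligand gene Nodal (chr10:61417972-61425338) was at 25.2 and 21.5 CPM in the KO libraries and at 26.6 and 25.9 CPM in the WT libraries, from 73, 41, 63 and 34 counts. Both KO values lay just under both WT values, and the log2 fold change was −0.16 (SE 0.36, edgeR adjusted p = 0.811). Its 95% interval, −0.88 to 0.55, leaves room for a change in either direction. The co-receptor gene Tdgf1 (chr9:110939608-110946158) had the most counts of the 9, between 1378 and 3599 a library, and so the narrowest interval. It was at 1242 and 1188 CPM in KO and at 1106 and 1049.9 CPM in WT. For Tdgf1 the log2 fold change came to 0.17 (SE 0.14, 95% interval −0.11 to 0.45, edgeR adjusted p = 0.436), a difference that was not called although the groups did not overlap.

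The feedback inhibitor genes Lefty1 and Lefty2 lie next to each other on chromosome 1 (chr1:180935022-180938401 and chr1:180893108-180899107) but did not give the same values. Lefty1 was at 11.4 and 6.28 CPM in KO and at 16.9 and 23.6 CPM in WT, from 33, 12, 40 and 31 counts. Both KO values were below both WT values, with means of 8.83 ± 3.61 and 20.2 ± 4.78 CPM (SD, n = 2), and the log2 fold change of −1.14 (SE 0.49, 95% interval −2.11 to −0.16) missed the threshold at an edgeR adjusted p of 0.0942. Lefty2 was at 113 and 109.9 CPM in KO and at 107 and 93.0 CPM in WT, a log2 difference of 0.15 (SE 0.20, 95% interval −0.25 to 0.55, edgeR adjusted p = 0.678). Of the counts of both genes together, Lefty1 took 9.14% (Wilson 95% interval 6.58 to 12.6%) and 5.41% (3.12 to 9.21%) in the KO libraries, and 13.6% (10.1 to 17.9%) and 20.3% (14.7 to 27.3%) in the WT libraries. The KO shares were both below the WT shares, and the two-sided exact permutation p was 0.333, the smallest that 2 against 2 libraries can give. The intervals cover counting error only. Lefty1 and Lefty2 are close copies of each other, and the sources used here do not say how reads that match both were counted, so the split between them is uncertain.

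The type II receptor gene Acvr2b (chr9:119401583-119442148) was at 177 and 130.3 CPM in KO and at 179.6 and 189.7 CPM in WT. The first KO library was just under the WT libraries and the second further below, giving a log2 fold change of −0.25 (SE 0.18, 95% interval −0.61 to 0.10, edgeR adjusted p = 0.350). The signal transducer gene Smad2 (chr18:76241090-76311748) was at 26.9 and 24.1 CPM in KO and at 39.2 and 31.2 CPM in WT. Both KO values were lower, and the log2 fold change of −0.47 (SE 0.33, 95% interval −1.13 to 0.18) was not called (edgeR adjusted p = 0.342). Its partner Smad3 (chr9:63646766-63757994) was at 14.2 and 6.80 CPM in KO and at 7.17 and 10.7 CPM in WT, from 41, 13, 17 and 14 counts. Smad3 was the only one of the 9 whose groups overlapped: the lowest and the highest value were both KO libraries. The Smad3 log2 fold change of 0.30 (SE 0.58, 95% interval −0.86 to 1.45, edgeR adjusted p = 0.789) turned to −0.36 without KO replicate 1. Smad3 took 34.5% and 22.0% of the counts of Smad2 and Smad3 together in KO and 15.5% and 25.5% in WT, which overlapped (two-sided exact permutation p = 0.667).

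Eomes (chr9:118478186-118486132), which encodes a T-box factor of mesendoderm that also acts in trophoblast stem cells, was counted 50 and 43 times in the KO libraries and 3 and 4 times in the WT libraries. That is 17.3 and 22.5 CPM in KO against 1.26 and 3.05 CPM in WT, with no overlap and means of 19.9 ± 3.70 and 2.16 ± 1.26 CPM (SD, n = 2). The log2 fold change was 3.30 (SE 0.66, edgeR adjusted p = 0.000132), a fitted 9.84-fold rise with a 95% interval from 3.94 to 24.6. The ratio of the depth-scaled summed counts was 10.2, with an exact counting interval from 4.75 to 26.0. Eomes passed the filter only through the KO libraries, since neither WT library reached the minimum of 4.6 CPM, and with no filter it was at 3.32 (edgeR adjusted p = 6.55e-06). Over 11 alternatives to the fit, among them leaving out each library, its log2 fold change ran from 2.69 to 3.91 and its adjusted p from 6.55e-06 to 0.00584, and it was called in each. In these bulk samples more cells that express Eomes and more Eomes RNA per cell cannot be told apart.

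Gsc (chr12:104471209-104473236), the other target, which encodes a homeobox factor of the gastrula organizer, had lower values in KO. It was counted 23 and 12 times in KO and 38 and 20 times in WT, or 7.94 and 6.28 CPM against 16.0 and 15.2 CPM. Both KO values were below both WT values, which lay close together, but the log2 fold change of −1.12 (SE 0.54, 95% interval −2.20 to −0.04) was not called (edgeR adjusted p = 0.144). The 95% intervals of Eomes (1.98 to 4.62 on the log2 scale) and Gsc thus lay on opposite sides of 0, and that of Lefty1 lay on the side of Gsc; these intervals are not adjusted for the number of genes tested.

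Among the 3 genes whose pattern over the 4 libraries was closest to that of Eomes, by the Euclidean distance of centred log2 CPM among 10241 genes, were BC053393 and Zyx, at distances of 0.223 and 0.228. Zyx, which encodes the focal adhesion protein zyxin, was counted 127 and 96 times in KO and 11 and 13 times in WT, and BC053393 24 and 17 times in KO and 0 and 1 times in WT. Like Eomes, BC053393 passed the filter only through the KO libraries.

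Of 31 other genes of the pathway, 21 were tested, and 4 were called higher, 1 lower and 16 neither, beside the 10.4% and 9.3% of all genes. Their median log2 fold change was −0.03. Of the genes called higher, Acvr1b, Pcsk6 and Gdf3 are described. The type I receptor gene Acvr1b (ALK4), which pairs with ACVR2B, was at 22.4 and 16.2 CPM in KO against 4.64 and 8.38 CPM in WT. The log2 fold change of Acvr1b was 1.64 (SE 0.53) at an edgeR adjusted p of 0.0203, and it was no longer called without KO replicate 1 (1.36, adjusted p = 0.267), without WT replicate 1 (1.23, adjusted p = 0.161) and with DESeq2 (adjusted p = 0.0944). Pcsk6 (PACE4), a convertase that cleaves the Nodal precursor, was at 65.6 and 59.6 CPM in KO against 38.8 and 29.7 CPM in WT, or 0.85 on the log2 scale (SE 0.27), at an edgeR adjusted p of 0.0188. Pcsk6 was no longer called without either KO library (0.78 without replicate 1, 0.93 without replicate 2), without WT replicate 2 (0.69) and with DESeq2 (adjusted p = 0.0864).

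The ligand gene Gdf3, on chromosome 6 near Nanog, was at 197.8 and 211 CPM in KO against 117 and 116 CPM in WT. The difference of 0.81 on the log2 scale (SE 0.18, edgeR adjusted p = 0.000463) was close to the chromosome's median of 0.92, and after centring it was −0.11 (adjusted p = 0.775). Nanog itself went from 0.48 and called higher (adjusted p = 0.0127) to −0.44 and called lower (adjusted p = 0.0362). Skil (SnoN), a repressor of SMAD-driven transcription that is itself induced by the pathway, was the gene called lower, at 82.5 and 52.3 CPM in KO against 119.7 and 151 CPM in WT. Skil was at −0.98 on the log2 scale (SE 0.21, edgeR adjusted p = 0.000477), and at −1.46 after centring chromosome 3. Without KO replicate 2 it was −0.69 and no longer called (adjusted p = 0.0987). The common partner Smad4 (−0.31, SE 0.24) and the inhibitor Smad7 (0.29, SE 0.25) were not called. The nuclear partner gene Foxh1 had 0 and 1 counts in KO and 2 and 0 in WT, and 6 genes (Cfc1, Gdf1, Inhba, Inha, Fstl3 and Cer1) had none in any library. Where both libraries of a group hold no count, a level of up to 0.624 CPM in KO and 0.814 CPM in WT is allowed (3 counts over the group).

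**Figure D2:**
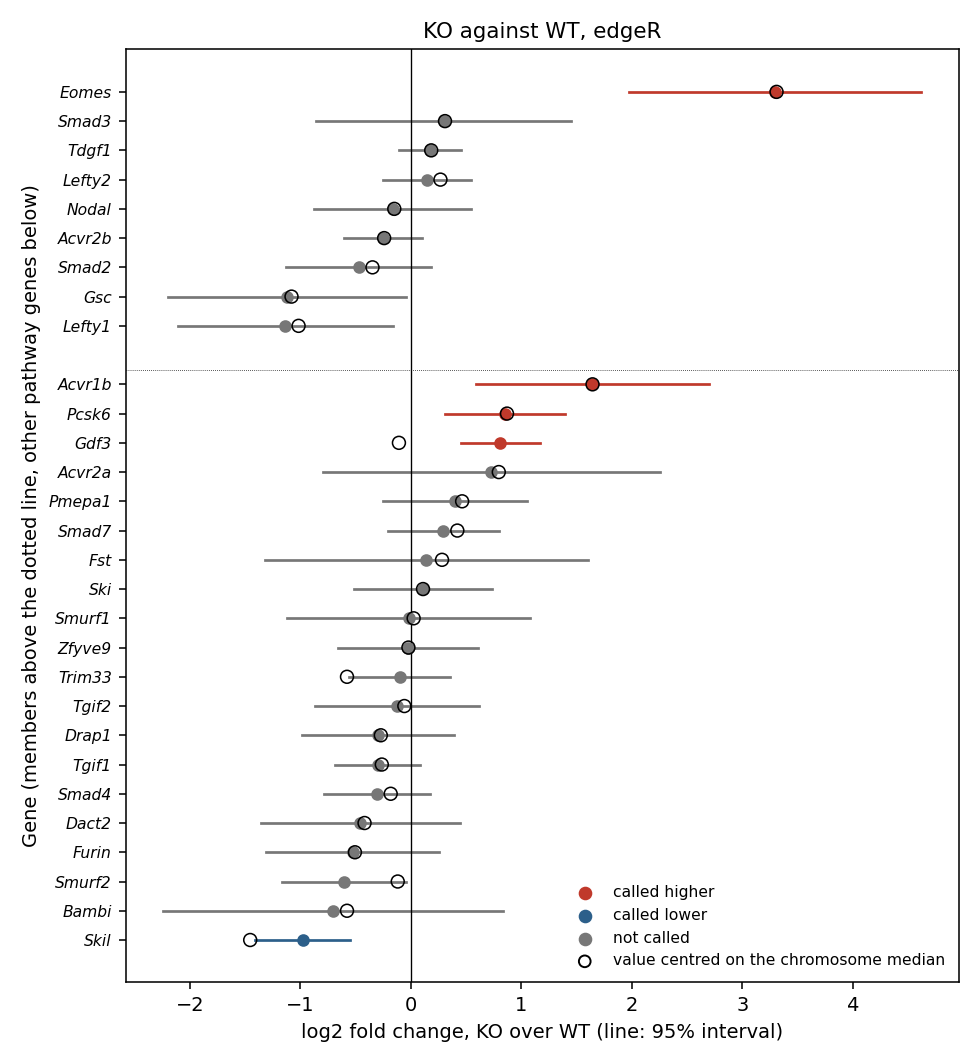
Log2 fold change, KO over WT, of the 9 genes (above the dotted line) and of other tested pathway genes (below it), with 95% intervals as lines; red is called higher, blue called lower, grey not called, and open circles show the value centred on the chromosome's median. Eomes stands at 3.30 and its centred value at 3.31, while Gdf3 moves from 0.81 to −0.11.

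Of 25 other mesendoderm genes only Hhex, Cdx1 and Otx2 had enough counts to be tested, and none was called by edgeR, DESeq2 or limma-voom, nor had an unadjusted edgeR p under 0.05. Hhex, a homeobox gene of anterior endoderm, was at 42.1 and 46.6 CPM in KO against 27.0 and 35.0 CPM in WT (log2 fold change 0.53, SE 0.30, edgeR adjusted p = 0.231). In all, 10 of the 25 had no count in any library, among them the primitive streak factor T, the mesoderm factor Mesp1, the endoderm factor Foxa2 and the Nodal inhibitor Cer1. Mixl1, a homeobox gene of the primitive streak, had 1 and 3 counts in KO and 2 and 0 in WT. Snai1, a repressor of E-cadherin in the primitive streak, had 7 and 7 counts in KO and none in WT. Against a floor of 3 counts over the WT group that is 3.58-fold higher, with counting error in KO left out. Kdr, a receptor of early mesoderm, had 11 and 8 counts in KO and 1 and 0 in WT, a ratio of 14.6 with an exact counting interval from 2.31 to 604.9. Gata6, a factor of primitive and definitive endoderm, had 12 and 4 counts in KO and 0 and 2 in WT, a ratio of 6.13 (1.44 to 55.0). These intervals cover counting error only. With no filter on low counts none of the 4 was called, at edgeR adjusted p-values of 0.882 for Mixl1, 0.137 for Snai1, 0.150 for Kdr and 0.465 for Gata6. These 4 were picked with their values in view, and others of the list went the other way. Mesp2 had 3 and 5 counts in KO and 9 and 6 in WT, with no overlap in CPM. With no filter Mesp2 was not called (edgeR adjusted p = 0.669). Fewer counts in KO in sum were also seen for Sox17 (2 and 0 against 4 and 0) and Wnt3 (1 and 3 against 6 and 0).

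Since Eomes is also a trophoblast gene, the 14 listed trophoblast markers are given beside it. The 13 other than Eomes summed to 273 and 291 CPM in KO and to 179.6 and 224 CPM in WT. Of these 13, 7 were tested. Called higher were 5 (Gata3, Gata2, Tead4, Krt8 and Krt18) and lower 2 (Tfap2c and Esx1), beside the 10.4% and 9.3% of all genes tested. Like Eomes, Gata2 passed the filter only through the KO libraries. The log2 fold change was 1.88 for Gata3, 3.05 for Gata2 and 2.84 for Tead4, the latter pair on chromosome 6 and at 2.14 and 1.93 after centring, while Tfap2c was at −1.44 and Esx1 at −2.48. Cdx2, a defining factor of trophoblast stem cells, had 8 and 6 counts in KO and none in WT. Against the same floor that is 3.58-fold higher, again with counting error in KO left out. With no filter on low counts Cdx2 was not called (edgeR adjusted p = 0.141). Elf5 had 3 and 1 counts in KO and 0 and 1 in WT. Krt7, with 4 and 5 against 22 and 4 counts, and Ascl2, with 1 and 9 against 14 and 4, had fewer in KO in sum, and with no filter neither was called (edgeR adjusted p = 0.281 and 0.695). The part of other cell types in the level of Eomes was not tested. Of the 12 primitive endoderm markers, 6 were tested and 3 were called higher (Dab2, Lama1 and Lamc1) and none lower, beside the same 10.4% and 9.3%, with sums of 1328 and 1248 CPM in KO and 1029 and 983 CPM in WT, while Foxa2 was at 0 in every library, Sox17 had at most 4 counts and Gata6 had the counts given above. The 8 fibroblast markers summed to 19.3 and 11.5 CPM in KO and 18.1 and 26.7 CPM in WT, and the 1 tested (Col1a1) was not called.

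**Figure D3:**
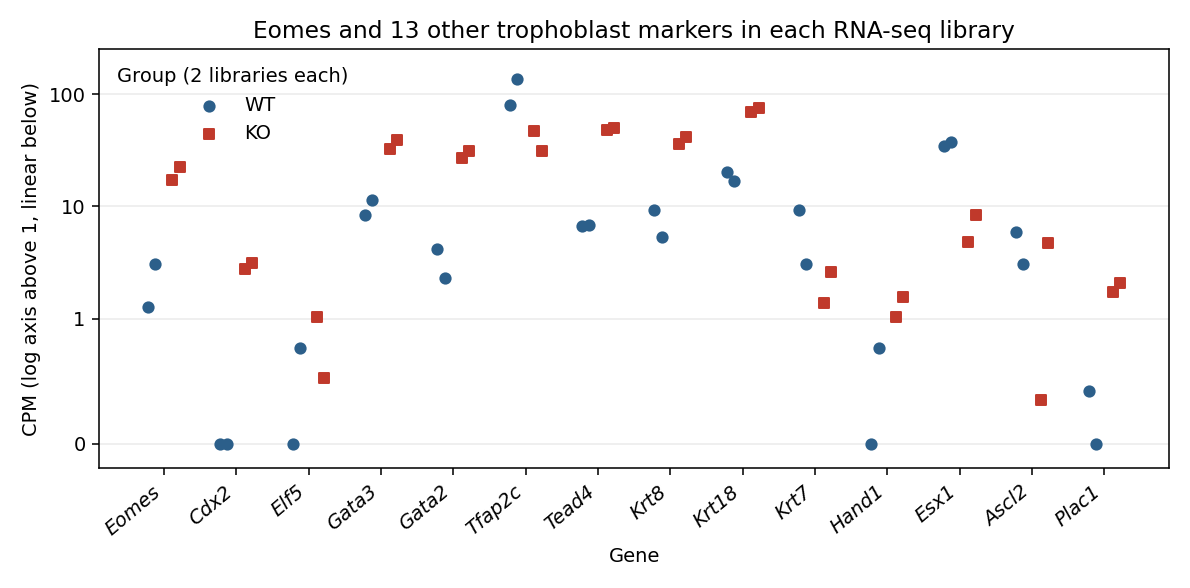
Level of Eomes and 13 other trophoblast markers in each library, in CPM on an axis that is logarithmic above 1 and linear below, with circles for WT and squares for KO (2 libraries each). Eomes, Gata3, Gata2, Tead4, Krt8 and Krt18 are higher in both KO libraries, Tfap2c and Esx1 are lower in both, and Cdx2 is at 0 in both WT libraries.

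All 9 genes had an RCOR2 peak summit within 20 kb of their interval, as did 92.8% of the 10215 placed genes tested, so that having a peak does not set them apart. Fold enrichment and −log10 q are the authors' values for each peak, called on merged libraries, with medians of 4.38 and 5.08 over 53366 peaks. The 9 genes had 43 peaks, none of them shared: 6 at Nodal, 2 at Lefty1, 9 at Lefty2, 11 at Tdgf1, 4 at Acvr2b, 1 at Smad2, 2 at Smad3, 5 at Eomes and 3 at Gsc. The median over tested genes was 3 (quartiles 2 and 6). Per 100 kb of window, the gene interval plus 20 kb on each side, Tdgf1 (23.6), Lefty2 (19.6), Nodal (12.7) and Eomes (10.4) were above the upper quartile of 8.78. Smad3 (1.32) and Smad2 (0.904) were under the lower quartile of 2.07. This rate can still depend on gene length. Smad3 and Smad2 are the longest of the 9 (111229 and 70659 bp), while Tdgf1, Lefty2, Nodal and Eomes span 6000 to 7947 bp. Gsc, the shortest at 2028 bp, was at 7.14, between the quartiles. Some of the peaks counted for Tdgf1 lie inside the interval of the neighbouring gene Lrrc2.

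**Figure D4:**
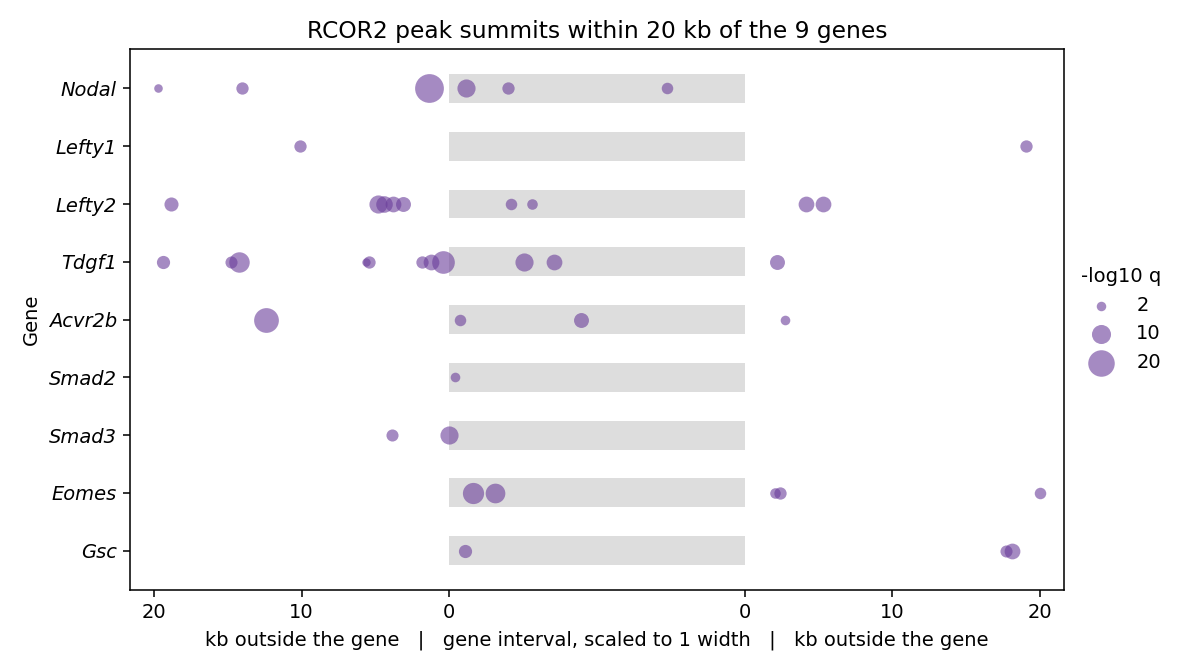
Position of RCOR2 peak summits around the 9 genes, in kb outside the gene on either side and with each gene interval (grey) scaled to 1 width, with the start on the left where the strand is known and the lower coordinate on the left for Lefty1, Lefty2 and Smad2; point area grows with −log10 q. Nodal, Tdgf1, Acvr2b, Smad3, Eomes and Gsc have a summit close to the start, while Lefty1 has none within 10 kb.

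The best peak at Nodal, chr10:61414869-61418062, was 3194 bp wide, wider than 99.9% of all peaks. Its fold enrichment was 9.87 and its −log10 q 23.7, its summit lay 1375 bp before the start, and it covered the whole start region printed above. Nodal's best peak was stronger than that of 90.1% of the genes tested, and a second peak of 5.98-fold followed 426 bp after the start. At Tdgf1 the best peak, chr9:110945991-110947189, was 1199 bp wide and enriched 7.35-fold (−log10 q 14.4), with its summit 413 bp before the start. That peak covers the Tdgf1 window with the FOXH1 and CAGAC letters, and a second one, chr9:110959985-110960748 (6.67-fold), lay 14240 bp before the start, inside the interval of the neighbouring gene Lrrc2. The RNA of neither Nodal nor Tdgf1 was called changed.

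At Lefty2 4 peaks lay together 3122 to 4850 bp outside the lower-coordinate end of the gene, the best of them at chr1:180888097-180888358 with 5.75-fold enrichment and a −log10 q of 9.00. Lefty1 had only 2 weak peaks, 10141 and 19026 bp away, both with a −log10 q of 3.79. The best peak counted for Acvr2b, chr9:119388953-119389273 (8.27-fold, −log10 q 17.4), lay 13016 bp before its start and inside the interval of the neighbouring gene Xylb, and a weaker one (3.69-fold, −log10 q 3.23) had its summit 898 bp after the start. Smad3 had a peak of 5.75-fold with its summit 14 bp after the start, and Smad2 a single weak one (3.24-fold, −log10 q 2.05) inside the gene.

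Eomes had 2 peaks just inside the gene, chr9:118478606-118479190 (6.90-fold, −log10 q 12.5) and chr9:118479270-118479721 (6.44-fold, −log10 q 10.7), with summits 621 and 1216 bp after the start. Neither reached the start region printed above, and the other 3 lay beyond the far end, the last with its summit exactly 20000 bp away, at the edge of the window. The best peak of Eomes was stronger than that of 69.4% of the genes tested. Gsc had a peak of 4.38-fold (−log10 q 4.46) with its summit 103 bp after the start and a pair 17667 and 18067 bp beyond its far end, the best of 5.07-fold (−log10 q 6.64). Of the 6 promoter windows, those of Nodal, Tdgf1, Smad3 and Gsc overlapped a peak and those of Acvr2b and Eomes did not, against 52.4% of 8267 tested genes with a window. Eomes, whose RNA was called, thus had its peaks after the start window, the nearest with its summit 621 bp after the start. Nodal and Tdgf1, with the strongest peaks over a start window among the 6 genes with one, were not called.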

How the data were processed

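The authors deposited raw read counts per gene symbol for the 4 RNA-seq libraries, in which 1 row is 1 gene. Tools named in the submitters' processing notes, with no step given, are STAR 2.5.2b, Trimmomatic 0.36, featureCounts, Subread, MACS2 2.1.1.20160309, Bowtie2 2.3.4.1, SAMtools 1.8, HOMER and bedtools 2.25.0, with the builds GRCm38 and mm10. The sources used here do not say how strand, molecular identifiers or reads shared by gene copies were treated. The RCOR2 peak list deposited by the authors holds 2 values per peak, a −log10 q and a fold enrichment over control; its peak names show merged libraries, which leaves no replicate values. Per the labels' protocols, the first ChIP replicate was read single-end and the second paired-end.

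The test on counts used R 4.3.3 and edgeR 4.0.16, with filterByExpr (a minimum of 4.6 CPM, 10 counts at the median library, in 2 libraries), TMM, and a two-sided quasi-likelihood test with genotype alone, checked on simulated data. CPM and all intervals were computed from the counts. DESeq2 1.42.0, limma-voom (limma 3.58.1), other scalings, no filter, a replicate block, chromosomes centred on their medians and leaving out each library were alternatives. Replicates differed by more than sampling noise (chi-square over degrees of freedom of 4.22 in KO and 4.79 in WT). Gene positions come from the RefSeq table of GRCm38.p6, matched for 24695 rows by symbol and 332 by synonym; a peak counted for a gene when its summit lay in the interval widened by 20 kb. Positions are 1-based. Named were all 9 genes, by rule, every called gene of the other pathway and mesendoderm lists, the 3 genes most alike to a called one, and Rcor2 and Nanog, some of which are not reported here; marker genes and exceptions said to be so were added. The genes and lists were chosen with earlier results of these data known. Protein sequences were not used here, so the planned identity of Lefty1 with Lefty2 was not computed.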

Additional observations from a re-analysis of the deposited data

How the results depend on the processing

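Eomes was called higher, and none of the 9 genes lower, under all 11 alternatives to the fit. The counts over all genes moved more: 1062 were called higher and 952 lower, against 643 higher with chromosomes centred, 650 higher and 506 lower with DESeq2, and 569 to 920 higher and 440 to 779 lower with 1 library left out; the lowest values came without KO replicate 1 (569 higher) and without KO replicate 2 (440 lower). Among the other pathway genes, the 4 called higher became 2 with DESeq2 and 2 to 3 with 1 library left out, and the 1 called lower became 0 to 1, with 0 when KO replicate 2 was left out. Smad3 ranged from −0.36 to 0.71 with 1 library left out, reversing without KO replicate 1, and Gdf3 reversed to −0.11 with chromosomes centred; for Gdf3 that is the median of its chromosome taken off, and for Smad3 the cause was not tested. The KO and WT libraries share replicate numbers, but their deviations from the group means correlated at only −0.053, so the numbers were not read as pairs; the replicate block gave 969 genes higher and 853 lower, Eomes at 3.28, and changed no call among the named genes of the 9 and the other pathway list. With peaks counted within 10 kb, 8 of the 9 genes had one (not Lefty1), beside 88.7% of the placed genes tested. With a −log10 q of at least 5 it was 7 (not Lefty1 or Smad2), beside 78.4%. Depth limits 4 of the 9: Lefty1, Smad3, Eomes and Gsc had 50 counts or fewer in every library.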

Other observations

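Of 7 other genes within 20 kb of the 9, all of them tested, 2 were called, and Lrrc2 is described here, named after its values were seen. Lrrc2, beside Tdgf1, was counted 102 and 58 times in KO and 128 and 78 times in WT, or −0.78 on the log2 scale (SE 0.28), at an edgeR adjusted p of 0.0397. Tdgf1 itself was not called (0.17).

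In the printed Tdgf1 window a run of 19 bases, gtaatgggcgtggggcccc, occurs back to back, with first bases 50 and 31 bases before the start; it was found after the sequence had been looked at. The longest repeated run in the windows of Nodal, Smad3, Eomes, Gsc and Acvr2b was 9 to 11 bases.

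Inhbb, which encodes the activin B subunit, another ligand of these receptors, was counted 1 and 1 times in KO and 13 and 2 times in WT, under the filter on low counts. With no filter it was not called (edgeR adjusted p = 0.284). The ratio of summed counts per depth, WT over KO, was 9.79, with an exact counting interval from 2.28 to 88.2, and most of the WT counts came from replicate 1.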
